A study of Rattus norvegicus with 9 samples.

Results

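The presynaptic vesicle release machinery was described through 38 named genes, whose products store neurotransmitter vesicles, dock and fuse them at the nerve terminal and take their membrane back up. The members were found by gene symbol, with the row of the highest total taken where a symbol was repeated, and 36 of the 38 were found among 30507 rows. Syt5 and Cplx1 were not analysed here. The libraries were made from the T9-T11 spinal cord of female Sprague-Dawley rats aged 8 weeks at the start and killed at 35 dpi (days post-injury), with 3 rats in each of 3 groups. Sham rats had a laminectomy only by the study's methods, and the labels call them untreated. SCI rats had a T10 contusion of 150 kdyn and carried a plug on the neck with no electrode, and SCI + SCS rats had the same contusion and an epidural electrode that delivered spinal cord stimulation at 10 kHz and 0.12 mA, in pulses of 30 µs, for 2 h per day from 1 dpi. Rats with an electrode and no stimulation were not sequenced, so the effects of the electrode and of the stimulation cannot be told apart. The sampled tissue held the contusion site and the cord around it.

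At a nerve terminal, vesicles filled with transmitter are tethered by synapsins and Rab3 proteins, guided to the active zone by large scaffold proteins and primed by Unc13 and RIM proteins. Fusion is driven by SNARE proteins on vesicle and plasma membrane and is triggered when a synaptotagmin binds calcium. Nsf and its adaptors then take the spent SNARE complexes apart, and endocytic proteins recover the membrane. In the spinal cord these proteins serve the terminals of interneurons, of descending and sensory axons, and of motor neurons.

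Before the results, 3 libraries were seen to stand apart. The sample totals lay between 62844376 and 88358570 counts. The summed level of 6 sensory ganglion neuron markers was 295 CPM (counts scaled to library size) in Sham replicate 2 and 7.42 to 23.7 CPM in the other libraries. The summed level of 30 skeletal muscle markers was 5678 CPM in SCI replicate 1 and 2158 CPM in SCI replicate 3, against 252 to 380.3 CPM elsewhere. Counts of members are therefore also given with each library left out in turn. Without Sham replicate 2 the call of Sv2c was lost (log2FC -2.41), and no other member lost its call in SCI against Sham. In that fit the log2FC of SCI against Sham was -4.00 for Rph3a, -4.01 for Rims1, -3.42 for Erc2, -3.37 for Syt7, -3.37 for Bsn, -3.22 for Syt1 and -2.22 for Synpr.

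RefSeq holds the start region of 29 of the 36 members (assembly GRCr8). The windows of 4 members are shown as examples, and no motif was related to a change in level. Rph3a had the largest fall after injury, Rab3b rose while its paralog Rab3a fell, and Syn1 is the classic neuronal synapsin gene. Each is the 250 bases before the annotated start, read 5′ to 3′, at chr12:41203312-41203561, plus strand, chr16:18722274-18722523, minus strand, chr5:128858841-128859090, plus strand and chrX:3725495-3725744, plus strand. Capitals mark TGACG, the core of the site bound by CREB factors, or GGGCGG, the GC box, on either strand.
Rph3a: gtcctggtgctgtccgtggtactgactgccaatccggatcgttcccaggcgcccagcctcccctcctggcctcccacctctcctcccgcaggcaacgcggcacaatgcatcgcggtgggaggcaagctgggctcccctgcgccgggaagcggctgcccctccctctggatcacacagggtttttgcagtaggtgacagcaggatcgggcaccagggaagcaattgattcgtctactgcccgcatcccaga
Rab3a: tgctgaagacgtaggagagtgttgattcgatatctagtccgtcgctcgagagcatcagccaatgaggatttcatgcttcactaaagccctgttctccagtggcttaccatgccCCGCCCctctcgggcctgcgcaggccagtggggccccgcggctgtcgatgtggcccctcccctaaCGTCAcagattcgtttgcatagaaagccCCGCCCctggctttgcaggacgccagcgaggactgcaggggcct
Rab3b: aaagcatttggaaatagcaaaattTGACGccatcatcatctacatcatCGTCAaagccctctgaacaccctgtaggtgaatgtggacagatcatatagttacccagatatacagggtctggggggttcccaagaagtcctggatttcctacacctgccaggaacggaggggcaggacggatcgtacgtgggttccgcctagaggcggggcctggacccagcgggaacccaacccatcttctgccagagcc
Syn1: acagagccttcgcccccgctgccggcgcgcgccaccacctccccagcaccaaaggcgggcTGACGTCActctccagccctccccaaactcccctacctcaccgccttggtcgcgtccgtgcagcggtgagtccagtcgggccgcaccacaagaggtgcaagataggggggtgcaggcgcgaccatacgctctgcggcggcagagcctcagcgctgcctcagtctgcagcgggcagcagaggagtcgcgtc
The Syn1 window held a palindrome in which TGACG on the plus strand overlaps TGACG on the minus strand. The Rab3b window held TGACG on both strands and no GC box, the Rab3a window held 1 TGACG and 2 GC boxes, and the Rph3a window held neither motif. TGACG stood in 10 of the 29 windows (34.5%), beside 19.0% of all 27457 RefSeq windows of this length and 30.4% of those of 23 widely expressed paralogs. It stood in 20.9% of the windows of 43 other genes of the release pathway and in 0 of 7 windows of neuron markers. GGGCGG stood in 18 of the 29 windows (62.1%), beside 32.4% of all windows and 73.9% of those of the paralogs. TATAAA was in 0 of the 29 and in 13.1% of all windows, but also in only 1 of the 23 and 1 of the 43. The RE1 consensus bound by the neuronal repressor REST was in 0 of the 29 and 0.168% of all windows. At so low a share, 0 of 29 says nothing about the members, and sites outside the 250 bases were not searched. The median GC content of the member windows was 64.8%, and that of all windows was 52.0%. Such matches describe the letters of a window and do not show that a factor binds there.

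Per-length levels in the uninjured cord spanned more than 3 orders of magnitude. On the FPKM scale (counts divided by gene length in kilobases and by sequencing depth), Snap25, the plasma membrane SNARE of neurons, had the highest Sham level at 779 ± 209 (SD, n = 3). Vamp1, a vesicle SNARE, followed at 296 ± 113, and Syp, the abundant vesicle protein synaptophysin, came next at 174 ± 52.1. The libraries of Snap25 and Vamp1 did not overlap, whereas those of Syp overlapped with Rab3a (157 ± 42.5) and Nsf (117 ± 34.2). At the other end were 3 scaffolds of the active zone, with Pclo at 0.666 ± 0.240, Erc2 at 0.571 ± 0.253 and Bsn at 0.377 ± 0.168. Within families, the spinal cord libraries held more Vamp1 than Vamp2 (87.9 ± 11.1 FPKM) and more Syt2 (12.9 ± 4.47 FPKM) than Syt1 (5.78 ± 2.50 FPKM), which are alternative vesicle SNAREs and fast calcium sensors. Among the members classed as calcium sensors, Doc2a, a sensor of asynchronous and spontaneous release, had the highest level at 13.5 ± 4.16 FPKM, which overlapped with Syt2. Syt3, which is not among the members, had a mean of 22.9 FPKM in Sham.

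**Figure D1:**
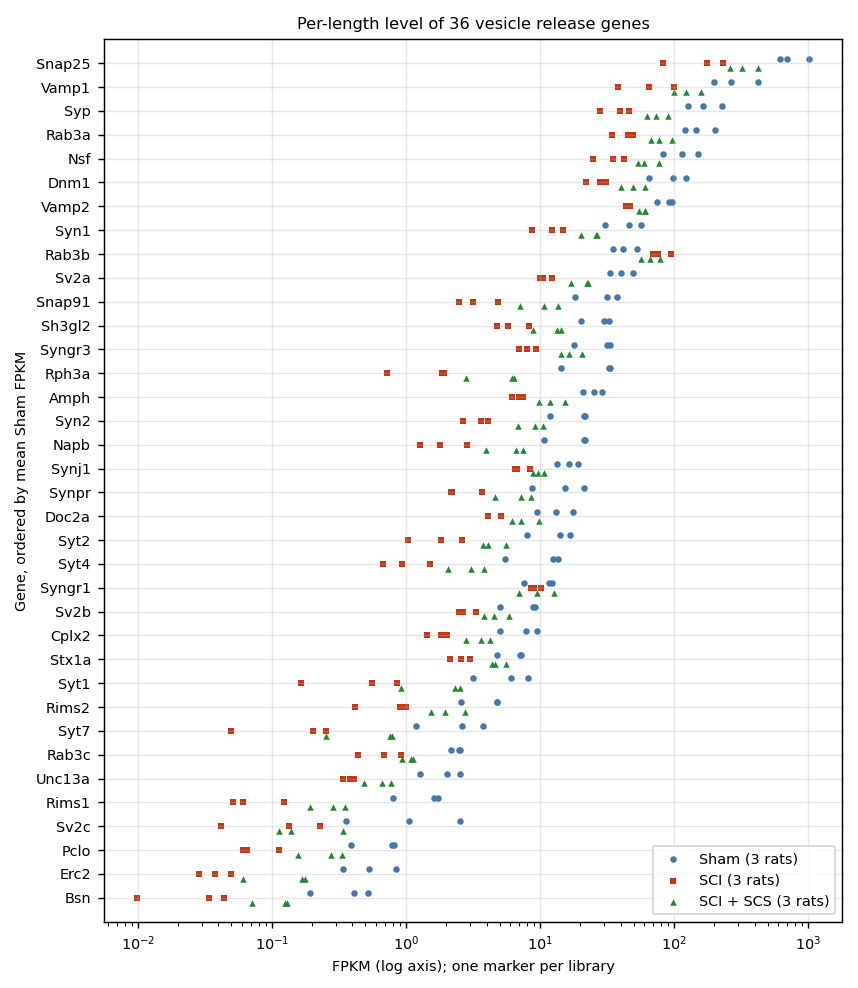
FPKM of each of the 36 genes in each of 9 libraries on a log axis, with genes ordered by mean Sham FPKM and one marker per library. SCI libraries lie left of Sham libraries for 34 genes, Syngr1 overlaps between groups, and Rab3b lies to the right in SCI.

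Setting SCI rats against Sham rats asked how far the release machinery was lowered around a chronic contusion. At an adjusted p under 0.05 (edgeR), 34 of the 36 members were lower in SCI, where 25% of all 17822 genes tested were called lower, and 1 member, Rab3b, was higher, where 24.3% were called higher. DEGs (|log2FC|>1 and adjusted p under 0.05) made up 33 of the 34, beside 13.6% of all genes. The median log2FC of the members was -2.14, against 0.02 for all genes tested, and members ranged from -4.14 for Rph3a to 0.86 for Rab3b. SCI and Sham libraries did not overlap for the 34 lower members or for Rab3b, while 31.1% of all genes were lower and 32.5% higher without overlap. Leaving out each library in turn gave 33 to 34 lower members, and Sv2c was the one that lost its call in 3 of the 6 fits. In bulk tissue, fewer neurons and less RNA per neuron cannot be told apart.

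Vesicle membrane proteins and synapsins, which make up the vesicle itself, fell in 8 of 9 cases with a median log2FC of -1.92. Syp levels were 747, 508 and 408 CPM in Sham replicates 1 to 3 and 164, 121 and 85.9 CPM in SCI, a fall of 4.55-fold (log2FC -2.19, standard error 0.32, adjusted p = 0.00294). Every SCI library was below every Sham library. Sv2c, the rarest of the SV2 vesicle glycoproteins, was measured at 3.54, 8.07 and 1.18 CPM in Sham and at 0.494, 0.724 and 0.13 CPM in SCI (log2FC -3.26, standard error 0.87, adjusted p = 0.0208). Its highest Sham value came from replicate 2, the library with the sensory ganglion markers, and without that library its log2FC was -2.41 and it no longer passed (adjusted p = 0.0646). With 9 counts in SCI replicate 3, it was also not called without SCI replicate 1 (adjusted p = 0.06) or SCI replicate 3 (adjusted p = 0.0546). Syngr1, a synaptogyrin of the vesicle membrane, had 15.5, 16.4 and 11.2 CPM in Sham and 17.0, 16.3 and 13.7 CPM in SCI, which overlap (log2FC 0.11, standard error 0.18, adjusted p = 0.658). Its relative, Syngr3, fell (log2FC -1.77), as did Syn1 (-1.90), Syn2 (-2.40), Synpr (-2.52), Sv2a (-1.92) and Sv2b (-1.44).

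The synaptotagmins and Doc2a, classed here as calcium sensors, fell in 5 of 5 cases. They had the most negative class median, -3.37, which was the value of Syt4. Syt7, a slow sensor for asynchronous release, showed the largest fall of the class. It stood at 6.89, 8.98 and 2.85 CPM in Sham and 0.177, 0.553 and 0.709 CPM in SCI (log2FC -3.73, standard error 0.64, adjusted p = 0.00472). The groups did not overlap, although the lowest SCI value rests on 14 counts. Doc2a fell least, from 32.7, 23.2 and 17.2 CPM to 8.32, 8.75 and 7.08 CPM (log2FC -1.62, standard error 0.25, adjusted p = 0.00349). The fast sensors Syt1 and Syt2 fell by 3.51 and 2.79 on the log2 scale, and Syt4, a synaptotagmin regulated by activity, by 3.37.

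SNARE proteins and complexin, the fusion core, fell in 5 of 5 cases with a median log2FC of -2.10. Snap25 lay at 2211, 1478 and 1349.7 CPM in Sham and at 599.6, 360.4 and 183 CPM in SCI, 4.47-fold lower (log2FC -2.16, standard error 0.45, adjusted p = 0.00876). SCI replicate 1 held over 3 times the Snap25 of SCI replicate 3, and both were below every Sham library. Vamp2 fell least among the 34 and was the only one of them that was not a DEG. Its level was 269.7, 251 and 211 CPM in Sham and 136, 125 and 116 CPM in SCI (log2FC -0.97, standard error 0.13, adjusted p = 0.00242), with a much narrower spread between rats than Snap25. Stx1a, the syntaxin partner of Snap25, had a log2FC of -1.32, and Cplx2, a complexin that clamps and promotes fusion, one of -2.10. Of the pair that takes SNARE complexes apart, the ATPase Nsf was measured at 726, 526 and 393 CPM in Sham and 222, 157 and 112 CPM in SCI (log2FC -1.77, standard error 0.32, adjusted p = 0.0058). Its brain-enriched adaptor Napb went from 96.2, 94.6 and 47.5 CPM to 6.3, 12.1 and 7.61 CPM, a 9.28-fold fall (log2FC -3.21, standard error 0.38, adjusted p = 0.00183).

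Active zone and Rab3 genes held both extremes. Rph3a, which encodes the Rab3 effector rabphilin, was at 119, 113 and 50.5 CPM in Sham and at 7.28, 6.47 and 2.46 CPM in SCI, 17.6-fold lower (log2FC -4.14, standard error 0.53, adjusted p = 0.00216). The files place it at chr12:35542728-35617592 on the plus strand, in the mRatBN7.2 build by the processing notes. Rims1, a scaffold that tethers calcium channels near vesicles, fell alike from 12.7, 11.4 and 5.83 CPM to 0.507, 0.88 and 0.376 CPM (log2FC -4.10, standard error 0.46, adjusted p = 0.00167). The scaffolds Erc2 (log2FC -3.78), Bsn (-3.65) and Pclo (-3.05) followed, and the priming factor Unc13a had a log2FC of -2.36. SCI replicate 3 held only 8 counts of Erc2 and 11 of Bsn. Rims2, the paralog of Rims1, fell by 2.11 on the log2 scale. Rab3a, the main neuronal Rab3, went from 489, 336 and 286 CPM to 129, 102 and 78.1 CPM (log2FC -1.86, standard error 0.27, adjusted p = 0.0029), and Rab3c had a log2FC of -1.74.

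Rab3b, a Rab3 protein that is also found in secretory cells outside the nervous system, ran the other way. Its level was 71.3, 45.1 and 54.9 CPM in Sham and 110.3, 86.7 and 118 CPM in SCI, so that the lowest SCI library was above the highest Sham library. The rise was 1.82-fold (log2FC 0.86, standard error 0.20, adjusted p = 0.0132), with a log2FC between 0.71 and 1.06 when each library was left out. It passed the adjusted p in each of these fits, and without Sham replicate 1 it was also past the fold threshold for a DEG. On the FPKM scale Rab3b was ninth of the 36 members in Sham and second in SCI. Its position in the files is chr5:123644423-123697401 on the plus strand (mRatBN7.2).

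Endocytic genes fell in 5 of 5 cases, with a median log2FC of -1.88. Dnm1, the neuronal dynamin that cuts vesicles from the membrane, was at 513, 387 and 266 CPM in Sham and at 129, 122 and 87.5 CPM in SCI (log2FC -1.80, standard error 0.28, adjusted p = 0.00331). Snap91, a clathrin adaptor of nerve terminals, fell most, from 123, 100.2 and 58.5 CPM to 11.2, 14.8 and 7.7 CPM (log2FC -3.08, standard error 0.36, adjusted p = 0.00182). Synj1, the phosphatase that uncoats vesicles, fell least, from 171, 140.3 and 117 CPM to 62.9, 69.1 and 55.8 CPM (log2FC -1.21, standard error 0.17, adjusted p = 0.00265). The groups did not overlap for any of the 5, which include Amph (-1.88) and Sh3gl2 (-2.16).

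**Figure D2:**
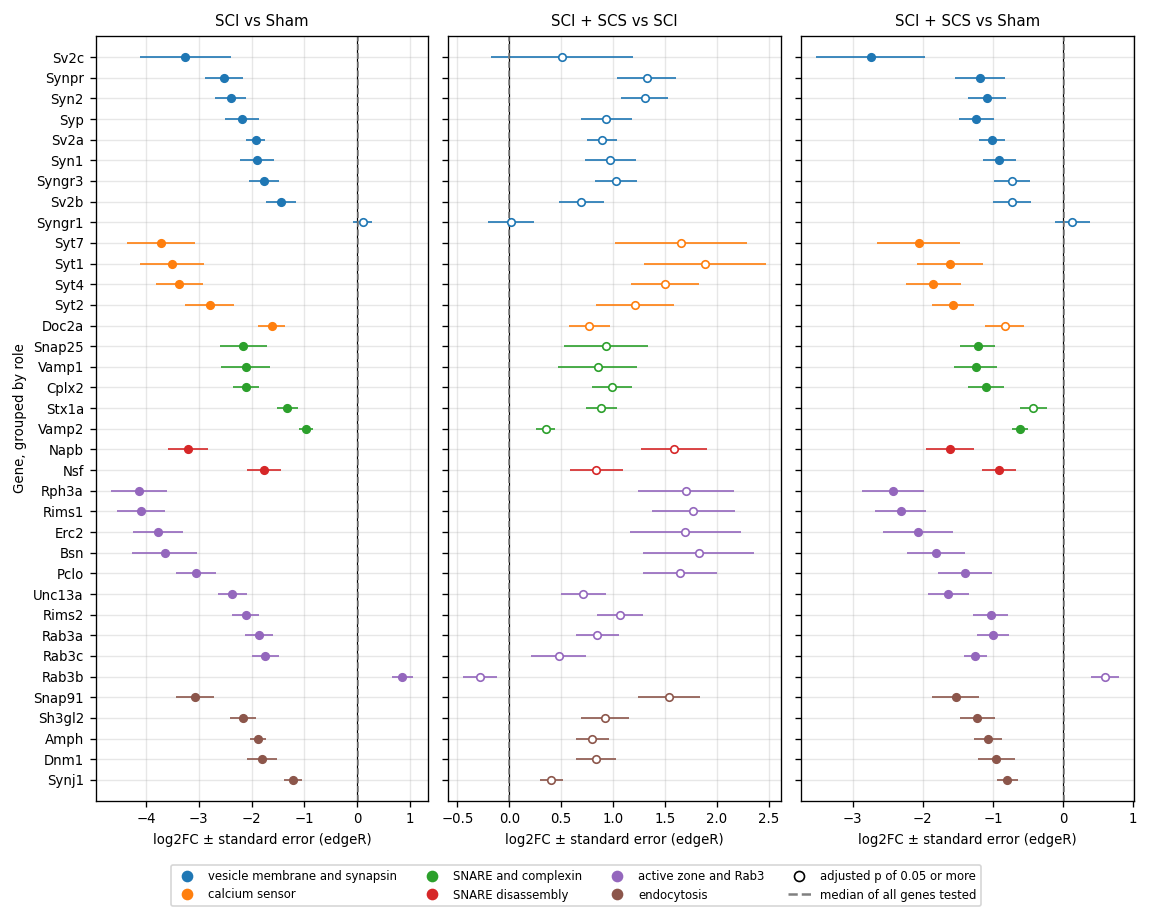
Log2FC and standard error of each of the 36 genes in the 3 comparisons, by role, from edgeR with 3 rats per group (filled markers passed an adjusted p of 0.05, open markers did not). In SCI against Sham 34 genes are filled to the left of 0 and Rab3b is filled to the right, and in SCI + SCS against SCI 35 genes are right of 0 and none is filled.

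Some libraries were high or low for many members at once. Among Sham libraries, replicate 1 was the highest for 26 of the 36 members and replicate 3 the lowest for 34. Among SCI libraries, replicate 3 was the lowest for 27, while the highest was replicate 1 for 17 and replicate 2 for 15. The summed level of the members was 8171, 5899 and 4622 CPM in Sham, 2237, 1653 and 1194 CPM in SCI and 2428, 2888 and 3508 CPM in SCI + SCS. The 13 neuron markers moved in the same order, at 11394, 7402 and 5165 CPM in Sham, 2899, 1705 and 1069 CPM in SCI and 2719.8, 3008 and 4283 CPM in SCI + SCS. Of these markers, 13 of 13 fell in SCI against Sham, with a median log2FC of -2.10. Oligodendrocyte markers were lower in SCI for 5 of 6 genes, fibroblast markers higher for 6 of 6 and T cell markers higher for 4 of 5. None of the defining neuron markers was at 0 in any library. Apart from the neuron markers, the part of these cell types in the results was not tested.

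**Figure D3:**
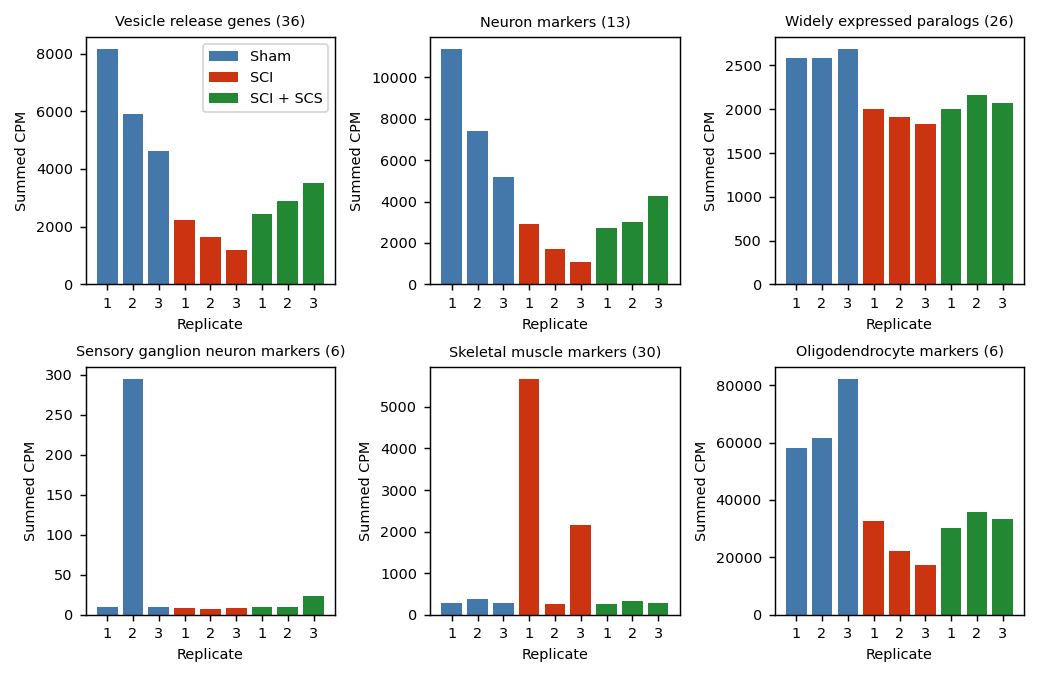
Summed CPM of 6 gene lists in each of 9 libraries (bars, 1 per rat). Vesicle release genes and neuron markers share their order of libraries within Sham and SCI, Sham replicate 2 alone holds 295 CPM of sensory ganglion markers, and SCI replicates 1 and 3 hold 5678 and 2158 CPM of muscle markers.

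To compare the members with neurons as a whole, library sizes were set to the summed counts of the 13 neuron markers. On this scale a log2FC is a change relative to those markers, and 79% of all genes were called higher in SCI than in Sham while 0.449% were called lower. The median member then had a log2FC of 0.02, with 18 members negative and 18 positive. Against the markers, 3 members of the active zone and Rab3 class were lower, namely Rph3a (log2FC -2.04, standard error 0.65, adjusted p = 0.00309), Rims1 (-1.87, standard error 0.73, adjusted p = 0.0152) and Bsn (-1.59, standard error 0.76, adjusted p = 0.0463). The 2 members higher than the markers were Rab3b (log2FC 3.12, standard error 0.68, adjusted p = 2.79e-05) and Syngr1 (2.30, standard error 0.66, adjusted p = 0.00114). For all other members the difference from the neuron markers did not pass, with standard errors of about 0.6 or more that leave room for changes of that size. The neuron markers are dominated by neurofilament, tubulin and Uchl1 transcripts, so the scale follows those genes most. Without this scaling, the log2FC of single neuron markers ranged from -3.74 to -1.38. That range held Bsn (-3.65), while Rims1 (-4.10) and Rph3a (-4.14) were below it. A lower level against the summed markers is therefore not a lower level against each marker.

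**Figure D4:**
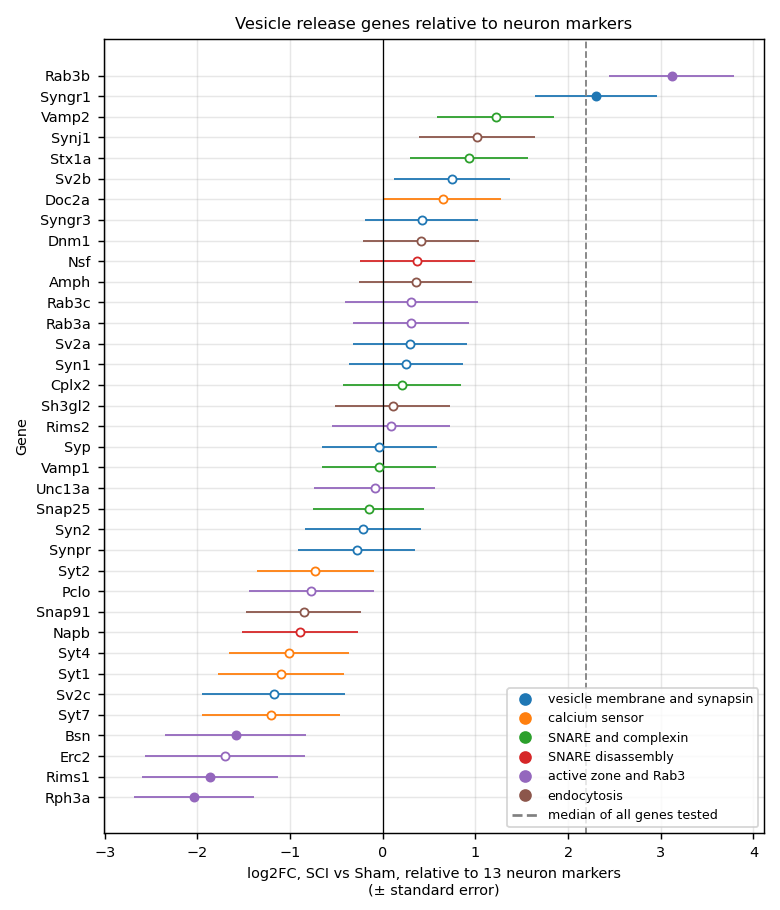
Log2FC and standard error of SCI against Sham for each of the 36 genes when library size was set to 13 neuron markers (filled markers passed an adjusted p of 0.05). Rph3a, Rims1 and Bsn are filled below 0, Syngr1 and Rab3b are filled above 0, and the dashed line is the median of all genes tested at 2.19.

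Within a library, the ratio of 2 genes does not depend on scaling. For 21 gene pairs in 2 comparisons, 42 exact permutation tests of 3 libraries against 3 were made, and none could give a p under 0.1, which is 0.2 or more after Benjamini-Hochberg adjustment. Rab3b had 0.146, 0.134 and 0.192 counts per Rab3a count in Sham, 0.856, 0.847 and 1.52 in SCI and 0.652, 0.405 and 0.385 in SCI + SCS. The 3 groups did not overlap (exact permutation p = 0.1 in both comparisons, adjusted p = 0.2). Rims2 had 1.73 to 2.50 counts per Rims1 count in Sham and 5.11 to 10.9 in SCI, again without overlap (exact permutation p = 0.1), whereas SCI + SCS libraries, at 4.53 to 5.23, overlapped with SCI (p = 0.2). The ratio of Vamp1 to Vamp2 counts was 3.13 to 5.22 in Sham and 1.03 to 2.66 in SCI, without overlap. Per length (FPKM), Vamp1 stood at 2.67 to 4.38 times Vamp2 in Sham and at 0.871 to 2.26 times in SCI, so that Vamp2 was the higher one in SCI replicate 3.

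In 11 of the pairs a member was set against a widely expressed paralog that serves membrane traffic in many cells. The ratio was lower in SCI than in Sham without overlap for 8 of the 11 and overlapped for the other 3, Syp to Sypl1, Syngr1 to Syngr2 and Synj1 to Synj2 (4.09 to 4.56 in SCI and 2.93 to 5.30 in Sham). From Sham to SCI, mean levels went from 243 to 110 CPM for Sypl1 and from 36.6 to 14.3 CPM for Synj2. The mean of Syngr2 went from 63.3 to 75.6 CPM. An overlapping ratio is therefore not a kept level of the member. The share of such ratios among other gene pairs was not counted. Snap25 had 47.8 to 108 counts per Snap23 count in Sham, 5.35 to 18.8 in SCI and 18.7 to 38.2 in SCI + SCS. Dnm1 had 1.78 to 4.26 counts per count of Dnm2 in Sham, 0.698 to 0.827 in SCI and 1.11 to 1.83 in SCI + SCS, where SCI overlapped with neither of the other groups. The Napb to Napa ratio was 0.308 to 0.543 in Sham, 0.0373 to 0.0834 in SCI and 0.105 to 0.208 in SCI + SCS, also with no overlap. The smallest p that 3 against 3 allows, 0.1, was reached for these pairs in SCI against Sham (exact permutation, two-sided).

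**Figure D5:**
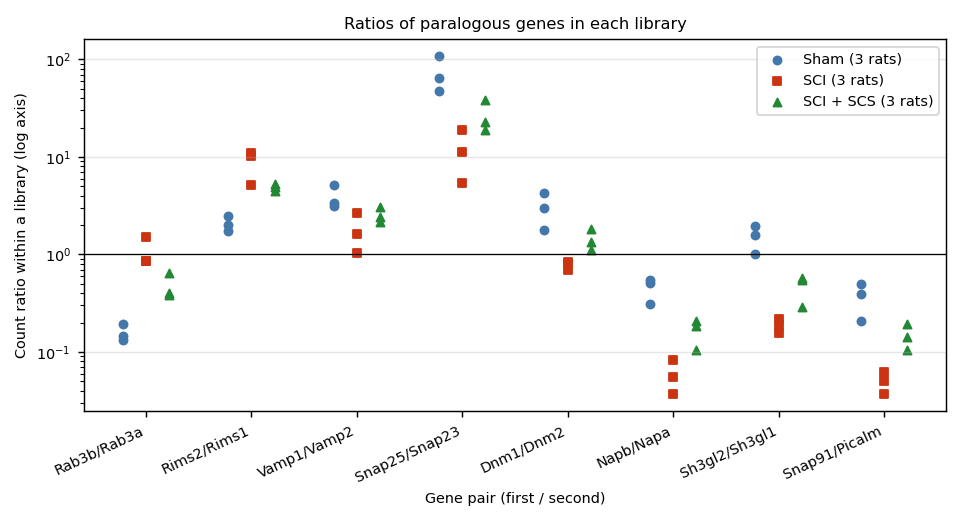
Count ratio of 8 gene pairs in each of 9 libraries on a log axis, 1 marker per rat. Rab3b per Rab3a is lowest in Sham (0.134 to 0.192) and highest in SCI (0.847 to 1.52), and Snap25 per Snap23 is highest in Sham (47.8 to 108).

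Of the other genes of the release pathway, 53 of 55 listed were in the files and 52 were tested in SCI against Sham. They comprised 42 lower and 2 higher genes, with a median log2FC of -1.89. The most negative were Slc17a7, a vesicular glutamate transporter (log2FC -5.44, adjusted p = 0.0393), Syt6 (-3.39, adjusted p = 0.013) and Apba1, an adaptor of Munc18 (-3.27, adjusted p = 0.00352). Slc17a7 had 19, 1709 and 460 counts in the Sham libraries, so its Sham level rested on replicate 2, and it overlapped between groups. The most positive were Sypl2, a synaptophysin relative of skeletal muscle (log2FC 4.25, adjusted p = 0.0464), Rabac1 (0.58, adjusted p = 0.0185) and Cplx3 (-0.18, adjusted p = 0.836). Sypl2 had 802 and 490 counts in SCI replicates 1 and 3, the libraries with muscle markers, and 5 in replicate 2. Of 26 widely expressed paralogs, 9 were lower and 9 higher, with a median log2FC of 0.16. Stxbp2, the Munc18 of blood cells (log2FC 2.23, adjusted p = 0.00207), Vamp8 (1.70, adjusted p = 0.00292) and Unc13d (1.498, adjusted p = 0.00261), known from granule secretion, rose most. Syt11 (-1.78, adjusted p = 0.0012), Synj2 (-1.37, adjusted p = 0.00138) and Erc1 (-1.27, adjusted p = 0.0134) fell most.

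Setting SCI + SCS rats against SCI rats asked whether the machinery differed in stimulated rats. Of the 36 members, 0 passed an adjusted p of 0.05 in edgeR in either direction, where 0.00566% of 17663 genes were called higher and 0% lower. The smallest adjusted p of a member was 0.0718. By sign, 35 members were higher in SCI + SCS, with a median log2FC of 0.93 against -0.01 for all genes, and 30 had an unadjusted p under 0.05, beside 13.3% of all genes in that direction. The libraries did not overlap for 30 members, all higher in SCI + SCS, beside 15.6% of all genes. DESeq2 called 28 members higher (8.83% of its genes) and 13 of them as DEGs (2.53%). This comparison shares its SCI libraries with the one above, so a low SCI library enters both. Without SCI + SCS replicate 1, Sv2a (log2FC 1.02) and Amph (0.94) passed in edgeR at an adjusted p of 0.0499, and none passed when any other library was left out.

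The 3 highest values belonged to a calcium sensor and active zone scaffolds. Syt1 was at 0.444, 1.93 and 1.27 CPM in SCI and 2.13, 5.9 and 5.35 CPM in SCI + SCS (log2FC 1.89, standard error 0.59, adjusted p = 0.124). Bsn had 0.583, 0.653 and 0.159 CPM in SCI and 1.08, 1.99 and 1.88 CPM in SCI + SCS (log2FC 1.83, standard error 0.53, adjusted p = 0.115). Rims1 had 1.4, 2.08 and 2.52 CPM in SCI + SCS, above the SCI values given before (log2FC 1.77, standard error 0.40, adjusted p = 0.0872). All 3 had no overlap between groups, and all 3 remained below every Sham library in SCI + SCS. None of the 3 passed the adjusted p. The lowest SCI values rest on 35 counts for Syt1, 11 for Bsn and 26 for Rims1.

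The 3 lowest values were those of Rab3b, Syngr1 and Vamp2. Rab3b stood at 100.7, 72.4 and 84.8 CPM in SCI + SCS, overlapping with SCI (log2FC -0.28, standard error 0.16, adjusted p = 0.331). Syngr1, at 15.5, 20.6 and 11.2 CPM, overlapped too (log2FC 0.01, standard error 0.22, adjusted p = 0.976). Vamp2 was at 148, 164 and 165.6 CPM, just above the SCI libraries (log2FC 0.35, standard error 0.10, adjusted p = 0.105). Snap25 had 574, 684 and 907 CPM, and its lowest SCI + SCS library was below SCI replicate 1 (log2FC 0.93, standard error 0.40, adjusted p = 0.215). Vamp1, Syt7 and Sv2c overlapped as well. Among the classes, the calcium sensors had the highest median (1.504) and the active zone class the next (1.36), and the SNARE class had a median of 0.89. Relative to the 13 neuron markers, the median member had a log2FC of 0.04 and 0 members passed, where 7.23% of all genes were called lower and 0.051% higher. Neuron markers themselves had a median log2FC of 0.91, with 0 of 13 passing and 7 at an unadjusted p under 0.05. Markers of other cell types also differed at an unadjusted p under 0.05, with 0 passing after adjustment. Astrocyte markers were higher for 4 of 6 genes (5826 to 9031 CPM in sum in SCI and 8920.1 to 11646 CPM in SCI + SCS) and oligodendrocyte markers for 4 of 6 (17159.8 to 32617 and 30229.6 to 35864 CPM). Fibroblast markers were lower for 5 of 6 (3346 to 5052 and 2058 to 3498 CPM), T cell markers for 4 of 5 (20.02 to 22.1 and 7.16 to 13.3 CPM) and muscle markers for 25 of 27 tested (252 to 5678 and 262 to 332 CPM). The high muscle sums came from SCI replicates 1 and 3, whereas SCI replicate 2, at 252 CPM, was below every SCI + SCS library. The share of all genes lower at that unadjusted p is not given here. What part these cell types had in the results was not tested.

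Setting SCI + SCS rats against Sham rats asked what difference was left in stimulated rats. At an adjusted p under 0.05, 30 of the 36 members were lower, beside 16.2% of 17640 genes, and 25 were DEGs, beside 5.44%. The median log2FC was -1.20, and 0 members were higher in edgeR. Sv2c (log2FC -2.74), Rph3a (-2.42) and Rims1 (-2.31) were lowest. The 6 members that did not pass were Doc2a (log2FC -0.83, adjusted p = 0.0608), Sv2b (-0.73), Syngr3 (-0.73), Stx1a (-0.42), Syngr1 (0.13) and Rab3b (0.59, standard error 0.20, adjusted p = 0.0604). All 3 Rab3b libraries of the SCI + SCS group were above those of the Sham group. These calls changed in number when single libraries were left out. The share of all genes called in those fits was not counted, so the changes cannot be read as particular to the members. The count of lower members was 19 without Sham replicate 1, 10 without Sham replicate 2, 34 without Sham replicate 3, and 7, 8 and 18 without SCI + SCS replicates 1, 2 and 3. The median log2FC relative to the neuron markers was 0.01, with Sv2c and Rph3a lower and Syngr1 and Rab3b higher, beside 0.215% and 53.4% of all genes.

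Counts and FPKM did not always imply the same gene length in every library. The length that links count and FPKM was 1301 to 1456 bases for Syngr1 in Sham and 1623 to 1682 bases in SCI and SCI + SCS, and for Rims2 it reached 11886 bases in SCI replicate 1 against 3799 to 5944 bases in the other libraries. Syt7 ran from 2084 bases in an SCI + SCS library to 3166 bases in an SCI library. Rab3c ran from 1531 bases in a Sham library to 2172 bases in an SCI library. The per-length levels of these genes are therefore uncertain. On the log2(FPKM + 1) scale the log2FC of Syngr1 in SCI against Sham was -0.14 (adjusted p = 0.545, limma) where counts gave 0.11, and neither passed. For Snap25 the implied length varied only from 2120.2 to 2311 bases.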

How the data were processed

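Poly(A) RNA from the T9-T11 spinal cord of 9 rats was sequenced, and groups and replicate numbers were read from the labels. Per the submitters' processing notes, the authors used fastp 0.23.2 and HISAT2 2.2.1 with the mRatBN7.2 build, and the counting program and the use of strand are not given in the sources used here. The authors deposited raw counts per gene and a table of FPKM values (fragments normalized to kilobases of gene and to depth). Reads with no molecular identifier are not independent molecules, so the floor of 3 counts (0.0341 to 0.047 CPM) covers counting error only.

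Counts of all rows were compared by the quasi-likelihood test of edgeR 4.0.16 under R 4.3.3, after TMM normalization and the tool's low-count filter, over the 6 libraries of a comparison, without covariates, and p-values were Benjamini-Hochberg adjusted over all genes tested. The standard error is the log2FC divided by the square root of F. The authors' methods name DESeq2 with the same thresholds for DEGs, and DESeq2 1.42.0 was run as an alternative, with limma 3.58.1 on log2(FPKM + 1) and log2(FPKM + 0.1) where the mean FPKM reached 0.1, a scale on which the changes of low genes come out too small. Other alternatives changed the filter, the scaling, the libraries in the fit, the replicate block, repeated identifiers and each library in turn. CPM values were TMM-normalized over 9 libraries. Count ratios of gene pairs were compared by a two-sided exact permutation test. Each tool was tested on simulated data modelled on these libraries, with 200 genes changed 4-fold. For SCI against Sham and SCI + SCS against SCI, DESeq2 recovered 94% and 96% of these, with 53 and 28 false calls. In the same order, edgeR recovered 89.5% and 92% with 9 and 8 false calls, and limma 90% and 89.5% with 8 and 13. For limma the simulated counts were scaled to library size and not to gene length, so its figures do not test the FPKM settings. The member median in SCI + SCS against SCI was smaller (log2FC 0.93), so the simulation does not weigh the DESeq2 calls there.

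The members, role classes and other lists were chosen with earlier results of these data known. Per-library values are given for the highest-level member of each class, the lowest and highest log2FC of each class, the 3 lowest and 3 highest log2FC of SCI + SCS against SCI, and members that did not fall. Of the other presynaptic genes and the paralogs, the 3 lowest and 3 highest log2FC of SCI against Sham are named. Syt1 has a second row of few counts, which was left out. Same-numbered rats are different animals, and their deviations from the group means correlated at -0.3284 to 0.2434, not over 0.1 in every pair, so the numbers were not taken to pair the libraries.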

Additional observations from a re-analysis of the deposited data

How the results depend on the processing

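In SCI against Sham, the calls of 34 lower members and 1 higher member stayed the same in count under DESeq2, both filters on low counts (32 lower among the members left at a minimum of 10 counts), 3 other scalings, removal of muscle and adipocyte markers, 9 libraries in one fit, the replicate block, both FPKM settings, summed identifiers and unadjusted p-values. Setting library size to neuron markers gave 3 lower and 2 higher members, all DEGs. That scaling shifts the median of all genes by 2.17 (SCI against Sham), -1.003 (SCI + SCS against SCI) and 1.16 (SCI + SCS against Sham) on the log2 scale, and other scalings shift it by less than 0.1. By its construction it turned signs. In SCI against Sham the log2FC became 0.25 for Syn1, 0.42 for Syngr3, 0.29 for Sv2a, 0.75 for Sv2b, 0.65 for Doc2a, 0.93 for Stx1a, 1.22 for Vamp2, 0.20 for Cplx2, 0.37 for Nsf, 0.31 for Rab3a, 0.31 for Rab3c, 0.088 for Rims2, 0.35 for Amph, 0.41 for Dnm1, 0.11 for Sh3gl2 and 1.01 for Synj1. In SCI + SCS against Sham it became 0.35 for Syn1, 0.15 for Syn2, 0.0154 for Synpr, 0.20 for Sv2a, 0.0107 for Vamp1, 0.59 for Vamp2, 0.13 for Cplx2, 0.32 for Nsf, 0.22 for Rab3a, 0.19 for Rims2, 0.11 for Amph, 0.29 for Dnm1, 0.0014 for Sh3gl2 and 0.42 for Synj1.

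In SCI + SCS against SCI, 28 members were higher by DESeq2 (13 DEGs) and 30 at an unadjusted p (15 with a log2FC over 1), against 0. The cause was not tested. In SCI + SCS against Sham, neuron marker scaling gave 2 lower and 2 higher members, all DEGs. A single higher member, Rab3b, passed by DESeq2, with library totals only, with 9 libraries in one fit, with the replicate block, in both FPKM settings and at an unadjusted p (1 in each). The replicate block left 1 lower member, Rab3c, also the 1 DEG, against 30 without the block. The share of all genes called with the block is not given here, so the loss cannot be read as particular to the members. Beside these losses and Rab3b the block changed no other call, with 0 members in SCI + SCS against SCI. The log2(FPKM + 1) setting gave 11 lower DEGs. The cause was not tested.

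With each library left out, SCI against Sham gave 33 to 34 lower members, 1 to 1 higher, 32 to 34 lower DEGs and 0 to 1 higher DEG. SCI + SCS against SCI gave 0 to 2 higher members and 0 to 1 higher DEG, and SCI + SCS against Sham 7 to 34 lower members, 0 to 1 higher and 5 to 29 lower DEGs. The share of all genes called in these fits was not counted. Low counts limit Erc2, Sv2c and Bsn, which had 8, 9 and 11 counts in SCI replicate 3.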
